A study of Mus musculus with 8 samples.

Results

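The 10 genes described here carry the signals that pass between the ureteric bud and the mesenchyme around it in the developing mouse kidney: the ligands *Gdnf*, *Fgf8*, *Fgf9* and *Fgf20*, the receptor *Ret* and its co-receptor *Gfra1*, the transcription factors *Etv4* and *Etv5*, and the feedback inhibitors *Spry1* and *Spry2*. They were chosen by symbol and pathway, with earlier results of these data known, and all 10 were found among the 32285 genes of the count table.

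The kidneys came from male mouse embryos, 2 *Trim28*Δ/Δ (tags named ko) and 2 *Trim28*f/f (tags named wt), in which *Trim28*, a chromatin co-repressor gene, was or was not deleted by a *Six2* promoter-driven EGFP-cre transgene. Both genotypes carry floxed *Trim28* alleles, so the controls are not unmodified animals. Cre acts in nephron progenitors and their descendants, whereas the ureteric bud and the stroma lie outside that lineage. The labels give the stage as E17.5 and the methods as E18.5. All 4 embryos were sequenced as 1 pool in a single 10x Genomics run, with the cells of each embryo told apart by a lipid-anchored DNA tag. They are called mice 1 and 2 (ko) and mice 3 and 4 (wt) below.

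*Gdnf* is secreted by the cap mesenchyme and the stroma and binds *Gfra1*, a GPI-anchored protein that presents it to the receptor tyrosine kinase *Ret* on the tips of the ureteric bud. *Ret* then raises *Etv4* and *Etv5*, ETS factors that drive branching, and *Spry1* and *Spry2*, cytoplasmic proteins that damp receptor tyrosine kinase signalling. The fibroblast growth factors *Fgf9* and *Fgf20* keep nephron progenitors undifferentiated, and *Fgf8* is needed in the early nephron for the cells to survive and form a tubule.

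Because *Etv4* and *Etv5* act through ETS sites, the promoters of the genes were searched for CCGGAA, 1 form of the ETS site, on both strands, that is, for CCGGAA or TTCCGG. Other and shorter forms of the site were not searched for. RefSeq promoters on GRCm38.p6 were at hand for 6 of the 10 genes and 8 starts (*Gdnf* and *Etv5* each with 2), each taken as the 250 bases before the start. Only the *Gfra1* promoter held this form, 1 match, beside 12.03% of all promoters (3952 of 32851) that hold it in the same window. The promoters of the co-receptor, of the ligand it binds, of a *Ret* target and of the *Ret* inhibitor are shown 5′ to 3′ with CCGGAA in capitals.
*Gfra1* promoter, chr19:58455399-58455648, minus strand: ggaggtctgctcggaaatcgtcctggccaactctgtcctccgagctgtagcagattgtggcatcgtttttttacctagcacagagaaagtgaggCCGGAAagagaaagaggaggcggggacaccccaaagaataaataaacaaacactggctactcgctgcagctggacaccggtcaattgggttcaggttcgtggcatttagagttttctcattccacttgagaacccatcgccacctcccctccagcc
*Gdnf* promoter, chr15:7809798-7810047, plus strand: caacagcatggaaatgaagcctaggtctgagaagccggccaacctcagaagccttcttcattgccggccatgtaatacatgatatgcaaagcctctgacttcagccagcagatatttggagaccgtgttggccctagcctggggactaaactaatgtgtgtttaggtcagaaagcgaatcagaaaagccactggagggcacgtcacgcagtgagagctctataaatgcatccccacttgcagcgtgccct
*Etv5* promoter, chr16:22439571-22439820, minus strand: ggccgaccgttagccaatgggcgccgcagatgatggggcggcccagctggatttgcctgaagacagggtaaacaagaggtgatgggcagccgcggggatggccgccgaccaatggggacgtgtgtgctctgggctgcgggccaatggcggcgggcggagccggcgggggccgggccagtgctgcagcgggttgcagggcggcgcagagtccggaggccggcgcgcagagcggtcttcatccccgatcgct
*Spry1* promoter, chr3:37639697-37639946, plus strand: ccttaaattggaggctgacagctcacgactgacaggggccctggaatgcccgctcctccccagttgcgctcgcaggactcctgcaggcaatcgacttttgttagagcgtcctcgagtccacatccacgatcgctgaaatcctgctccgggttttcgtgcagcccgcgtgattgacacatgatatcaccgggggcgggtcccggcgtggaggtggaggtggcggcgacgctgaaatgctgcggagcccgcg
The match is a string of letters and no evidence of binding, and its absence from the other windows says only that these letters are not in them. No promoters of *Ret*, *Fgf20*, *Etv4* and *Fgf8* were at hand, so these were not searched. Those of *Fgf9* and *Spry2* and the other start of *Gdnf* and of *Etv5* were searched but are not shown.

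The 4 mice gave 1316, 1491, 2749 and 1807 cells, with medians of 16386 to 17354 unique molecular identifiers (UMIs) per cell. The 24 clusters of these 7363 cells were named from marker genes that include none of the 10, and the 10 genes were also kept out of the clustering. This gave 16 named classes and 3 clusters without a name. In a class name, "-like" means that the name rests on markers alone. Of the clusters without a name, cluster 4 (led by *Spon1*, *Fgf8*, *Epha4* and *Sim2*, with 5 of 6 early distal tubule markers raised) and cluster 13 (led by *Pdgfrb* and *Ebf1*) recur below. Nephron progenitor-like (NPC-like) cells numbered 48, 73, 214 and 389 in mice 1 to 4, ureteric bud-like (UB-like) cells 24, 63, 116 and 67, cluster 4 cells 73, 99, 152 and 113, and S-shaped body-like (SSB-like) cells 89, 118, 300 and 156. The SSB-like class is led by cell cycle and histone genes (*Ube2c*, *Cenpf* and *Top2a* among them) with none of its own markers among its 10 leading genes, while 6 of the 7 SSB markers were raised in it. Mouse 3 stood apart from the others. It held 174 of the 175 cells of a collecting duct-like (CD-like) cluster and 104 of the 106 cells of a loop of Henle-like (LOH-like) cluster. Its *Vegfa* level over all cells was 268 CPM beside 72.5, 73.5 and 82.0 CPM in mice 1, 2 and 4.

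Levels are given as CPM, the UMIs of a gene in proportion to all UMIs of a class in a mouse. The totals were scaled by TMM factors, so that levels and fold changes share a scale. Unscaled, the median of all genes in NPC-like cells would be at 0.13 in log2 in place of −0.01. A log2 change is ko over wt from edgeR's quasi-likelihood test on the class sums of 2 and 2 mice. It is given with an SE and a p-value adjusted over all genes tested in that class. The SE was worked out as the size of the change over the square root of the test's F value, and is no spread over mice. *Trim28* itself was at 26.7, 23.1, 141 and 171 CPM in the NPC-like cells of mice 1 to 4. The change was −2.66 ± 0.21 in log2 (SE; adjusted p = 3.05e-04). In UB-like cells it was at 153, 142, 132 and 162 CPM, with a log2 change of −0.00 ± 0.22. The deposited counts are of transcript 3′ ends, and the 3′ exons of *Trim28* are retained after recombination, so these counts are no direct measure of the deletion.

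The 10 genes fell into different classes. *Ret* was close to restricted to UB-like cells, where *Gfra1*, *Etv4*, *Etv5* and, by its mean, *Spry1* were also at their highest. *Gdnf* was shared by stromal, mural and progenitor classes, *Fgf8* by early nephron classes, and *Fgf9* by tubular classes of both origins, whereas *Fgf20* was found in NPC-like cells and hardly elsewhere. Free RNA, measured in barcodes of 10 to 100 UMIs, could account for at most 2.42% of the UMIs in UB-like and 3.54% in NPC-like cells, which comes to no more than 1.17 CPM for any of the 10 genes in either class.

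**Figure D1:**
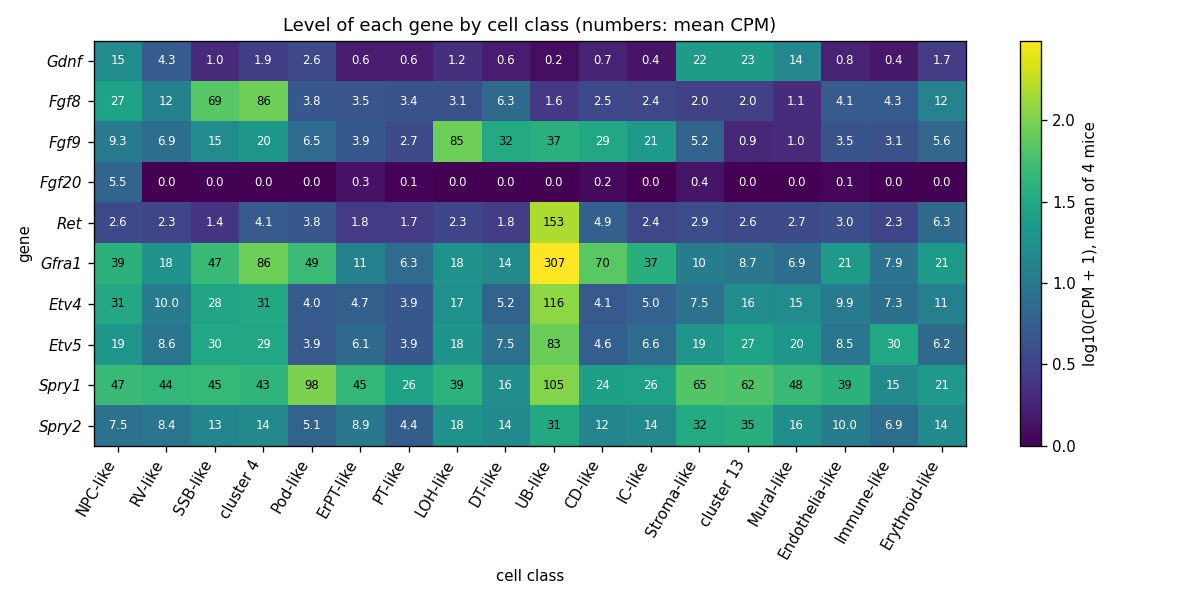
Mean level of each gene over the 4 mice in the 18 classes with at least 10 cells in every mouse (colour, log10 of CPM + 1; the number in each cell is the mean CPM). *Ret* stands at 153 CPM in UB-like cells and at 6.26 CPM or less in the other classes, and *Fgf20* at 5.48 CPM in NPC-like cells.

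*Gdnf* (chr15:7810846-7837575, plus strand) was highest in cluster 13 at 22.8 ± 9.97 CPM (SD, n = 4 mice), followed by stroma-like cells at 22.4 ± 18.0, NPC-like cells at 14.9 ± 8.76 and mural-like cells at 13.5 ± 10.9 CPM. None of these neighbours in the order differed beyond the spread over mice, and the next class, renal vesicle-like (RV-like) cells, was at 4.29 ± 1.94 CPM. UB-like cells held 2 UMIs of *Gdnf* in all.

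In NPC-like cells *Gdnf* was at 6.68 and 8.84 CPM in mice 1 and 2 and at 18.5 and 25.5 CPM in mice 3 and 4 (7, 13, 73 and 184 UMIs). Both ko mice were therefore below both wt mice, with a log2 change of −1.49 ± 0.36 (SE). However, the change did not pass the test across all genes (edgeR adjusted p = 0.0822). Leaving out mouse 3 or mouse 4 gave −1.67 (adjusted p = 2.98e-04) and −1.22 (adjusted p = 0.0403). Leaving out mouse 1 or 2 gave −1.33 and −1.74, with adjusted p-values of 0.657 and 0.344. In such fits the spread of the lone mouse is taken from the pair of the other genotype, and the share of all genes called in NPC-like cells moved too, from 1.58% to 5.74% and 10.4% without mouse 3 or 4 and to 0.209% and 0.306% without mouse 1 or 2. A value that passes without mouse 3 or 4, here and below, is to be read against that rise. The share of NPC-like cells with a *Gdnf* UMI, after each cell was thinned to 6800 UMIs, was 8.33% (4 of 48 cells, exact 95% interval 2.32 to 19.98%) and 8.22% (6 of 73, 3.08 to 17.0%) in the ko mice. It was 11.2% (24 of 214, 7.32 to 16.2%) and 13.4% (52 of 389, 10.1 to 17.2%) in the wt mice, so that the groups did not overlap but the intervals did. The exact permutation test, two-sided, gave p = 0.333, the smallest it can give with 2 against 2 mice. In proximal tubule-like (PT-like) cells, which should lack *Gdnf*, the thinned share was 0 to 1.22%, at median depths of 23533.5 UMIs there and 18058 in NPC-like cells. Without thinning the NPC-like shares were 12.5, 15.1, 22.4 and 29.3%.

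The cells called NPC-like were not alike in the genotypes. Their 8 progenitor markers summed to 487 and 569 CPM in mice 1 and 2 and to 1129 and 1373 CPM in mice 3 and 4, all 8 being above 1 CPM. The 8 RV markers summed to 2671, 2442, 1867 and 1644 CPM, higher in both ko mice, as were the sums of the SSB (7 markers; 1659, 1576, 1260.3 and 1210.1 CPM), early proximal tubule, early distal, podocyte and UB markers. The 7 mural markers summed to 68.7, 57.8, 113 and 80.4 CPM and were lower in both ko mice, as were the 7 endothelial markers (46.7, 51.0, 85.5 and 54.0 CPM), while the 8 stroma markers overlapped at 101, 81.6, 113 and 93.1 CPM. *Six2*, which defines the progenitors, was at 48.7, 52.3, 122 and 144 CPM, *Cited1*, which marks the least committed of them, at 23.8, 27.9, 271 and 334 CPM, and *Wnt4*, which marks induced cells, at 743, 669, 272 and 433 CPM. The part of these differences in the values of *Gdnf* and of the other genes was not tested.

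The class joins cluster 9 (15, 34, 85 and 212 cells), led by *Cited1*, and cluster 6 (33, 39, 129 and 177 cells), led by *Tmem100* and *Pcp4* and with more *Wnt4*. The split into clusters was made after the class had been defined. *Gdnf* was at 9.11, 17.6, 25.7 and 29.5 CPM in cluster 9 and at 6.14, 4.17, 15.4 and 21.5 CPM in cluster 6, with ko mice below wt mice in both and log2 changes of −0.91 ± 0.47 (adjusted p = 0.767) and −1.86 ± 0.45 (adjusted p = 0.0862). At 9.11 CPM in cluster 9 and 4.17 CPM in cluster 6, a ko mouse was under the cutoff of the filter on low counts. The ko mice alone would not have passed it, so both changes are given as a description.

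In classes outside the *Six2*-cre lineage *Gdnf* varied widely. Stroma-like cells had 14.1, 18.8, 8.08 and 48.5 CPM, where the 2 wt mice were the lowest and the highest of all (log2 change −0.66 ± 0.69, adjusted p = 0.999). Cluster 13 had 11.3, 19.4, 25.7 and 34.9 CPM with no overlap (−0.90 ± 0.46, adjusted p = 0.816), and *Trim28* in that cluster did not differ (−0.07 ± 0.23). The ko mouse at 11.3 CPM was under the cutoff of the filter on low counts, so the *Gdnf* change there is given as a description. Mural-like cells had 3.26, 8.54, 13.8 and 28.5 CPM from 28 UMIs and were under the filter on low counts for a test.

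*Fgf8* (chr19:45736798-45742915, minus strand) was highest in cluster 4 at 85.8 ± 57.8 CPM and in SSB-like cells at 68.6 ± 28.7 CPM, 2 classes that did not differ beyond their spread. NPC-like cells followed at 26.7 ± 20.6 CPM, a step larger than the spread, and the other classes were at 11.7 CPM or less.

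In cluster 4 *Fgf8* was at 25.7 and 55.9 CPM in mice 1 and 2 and at 158 and 104 CPM in mice 3 and 4. Both ko mice were below both wt mice, and the fall passed the test (log2 change −1.64 ± 0.28, edgeR adjusted p = 0.0178), as the only call among the 92 pairs of the 10 genes and a class that could be tested. Over all genes, 0.31% of such pairs were called. Of the 10598 genes tested in cluster 4, 0.83% were called and 0.264% were called lower. With a mouse left out the change was −2.36 (without mouse 2) to −1.24 (without mouse 1) and passed each time. DESeq2 gave −1.67 with an adjusted p of 0.482. In a coarser clustering cluster 4 was not a class of its own, and *Fgf8* was highest in SSB-like cells, with a change of −0.90 (adjusted p = 0.411). That class held 85, 113, 290 and 151 cells, close to the SSB-like class used here, while the distal tubule-like class grew to 126, 136, 251 and 154 cells. The value therefore says little about the cells of cluster 4.

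The thinned share of cluster 4 cells with an *Fgf8* UMI was 10.96% (8 of 73 cells, exact 95% interval 4.85 to 20.5%) and 18.2% (18 of 99, 11.1 to 27.2%) in the ko mice. In the wt mice it was 41.4% (63 of 152, 33.5 to 49.7%) and 27.4% (31 of 113, 19.5 to 36.6%), with p = 0.333 in the exact permutation test. In PT-like cells it was 1.14 to 1.79%, at a median depth of 23533.5 UMIs beside 15605 in cluster 4. Unthinned, the cluster 4 shares were 13.7, 29.3, 53.3 and 46.9%. The cells of cluster 4 were not alike in the genotypes either. The 7 SSB markers summed to 1637, 1531, 2046 and 2137 CPM and the 8 RV markers, which share 3 genes with them, to 1564, 1558, 2001 and 2049 CPM, lower in both ko mice, as were the 8 stroma markers (37.7, 33.8, 39.2 and 45.6 CPM). The 8 podocyte markers (89.1, 83.5, 61.1 and 66.3 CPM), 7 DT markers (492, 491, 353 and 482 CPM) and 6 intercalated cell markers (78.7, 78.6, 76.0 and 61.8 CPM) were higher in both. The 6 early distal markers overlapped in sum (973, 953, 1040 and 945 CPM), but among them *Irx1* was higher in both ko mice (222, 220, 143 and 143 CPM) and *Irx3* lower (12.05, 21.6, 53.3 and 34.9 CPM). Of the genes that lead the cluster, *Epha4* was higher in both ko mice (271, 243, 208 and 199.97 CPM) and *Spon1* lower (49.8, 57.0, 108 and 87.6 CPM). Their part in the *Fgf8* values was not tested.

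The same direction was seen for *Fgf8* in SSB-like and NPC-like cells without passing the test, but not in RV-like cells. SSB-like cells were at 47.1, 47.6, 71.9 and 108 CPM (−0.92 ± 0.21, adjusted p = 0.336). NPC-like cells were at 21.9, 3.40, 28.3 and 53.3 CPM (−1.83 ± 0.56, adjusted p = 0.205), the low value of mouse 2 resting on 5 UMIs. That value was under the cutoff of the filter on low counts, which the ko mice alone would not have passed, so the change is given as a description. RV-like cells overlapped at 2.85, 19.2, 6.42 and 17.6 CPM (0.04 ± 0.63, adjusted p = 0.997). The name of that class is weak. Its 10 leading genes hold 1 RV marker and 1 podocyte marker, although 7 RV markers were raised in it. Podocyte markers scored second (0.843 beside 1.347 for RV), and under 1 of the other tag calls the cluster went without a name. The values are therefore no clear measure of renal vesicle cells. In DT-like cells, under the filter for a test, the ko mice were above the wt mice, at 10.4, 5.98, 3.20 and 5.51 CPM, from 13, 7, 8 and 5 UMIs. Without mouse 1 the NPC-like change was −3.59 (adjusted p = 0.0441), without mouse 2 it was −0.92 (adjusted p = 0.781), and without mouse 3 or 4 it was −2.23 (adjusted p = 6.63e-07) and −1.33 (adjusted p = 0.0299).

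Of the 724 NPC-like cells, 86 had a *Gdnf* UMI and 89 an *Fgf8* UMI after thinning, and 13 had both, which is 15.1% of the first and 14.6% of the second. Over all NPC-like cells the shares were 11.9% for *Gdnf* and 12.3% for *Fgf8*.

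*Fgf9* (chr14:58070547-58112720, plus strand) was highest in LOH-like cells at 85.5 ± 59.7 CPM, followed by UB-like cells at 36.6 ± 7.40, distal tubule-like (DT-like) cells at 32.0 ± 23.0 and CD-like cells at 29.4 ± 14.5 CPM. No neighbours in this order differed beyond the spread. The LOH-like levels were 38.2, 68.0, 173 and 62.9 CPM, so that mouse 3, with 104 of its 205 LOH-like cells in the cluster that it alone filled, was far above the others, and the genotypes overlapped (−1.17 ± 0.47, adjusted p = 0.641). UB-like levels were close together at 27.3, 45.4, 36.6 and 37.0 CPM (0.07 ± 0.31, adjusted p = 0.999).

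*Fgf9* was low but detected in NPC-like cells, where mice 1 and 2 had 4.77 and 3.40 CPM and mice 3 and 4 had 13.4 and 15.8 CPM. Mouse 2 was under the cutoff of the filter on low counts, so the ko mice alone would not have passed it. The ko mice were below the wt mice (−1.87 ± 0.42, adjusted p = 0.0595), a change given as a description. Leaving out mouse 3 (−1.97, adjusted p = 0.00361) or mouse 4 (−1.74, adjusted p = 0.0292) took the value past the threshold, and leaving out mouse 1 or 2 gave adjusted p-values of 0.41 and 0.524. Within cluster 6 the levels were 2.45, 2.08, 14.0 and 17.0 CPM from 2, 2, 38 and 69 UMIs, and the change passed the test (−2.76 ± 0.54, adjusted p = 0.0281). With 2 UMIs in each ko mouse, *Fgf9* passed the filter on low counts there through the wt mice alone, so the call is given as a description. Progenitor markers differed by genotype within cluster 6 as well, with *Six2* at 20.9, 14.6, 90.4 and 118 CPM, *Cited1* at 9.82, 8.34, 93.3 and 187 CPM and *Wnt4* at 903, 913, 314 and 619 CPM, and their part was not tested. Of the 10377 genes tested in cluster 6, 1.7% were called and 1.13% were called lower. The *Fgf9* change did not pass without mouse 1 (−2.88, adjusted p = 0.297), mouse 2 (−2.65, adjusted p = 0.385) or mouse 4 (−2.59, adjusted p = 0.0567), nor in DESeq2 (−2.77, adjusted p = 0.284). In cluster 9 the levels overlapped at 13.7, 5.86, 12.4 and 13.7 CPM (−0.64 ± 0.63, adjusted p = 0.945). The difference between the clusters was not tested, and testing each cluster on its own was decided after the class values had been seen.

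In cluster 4, where *Fgf8* fell, *Fgf9* was at 10.4 and 13.3 CPM in mice 1 and 2 and at 30.6 and 25.3 CPM in mice 3 and 4 (−1.22 ± 0.28, adjusted p = 0.0789). It passed without mouse 3 (−1.06, adjusted p = 0.0429) and without mouse 4 (−1.33, adjusted p = 3.40e-04), but not without mouse 1 or 2 (adjusted p = 0.285 and 0.101). DT-like cells had 16.1, 18.8, 65.6 and 27.5 CPM with the same order of the genotypes (−1.52 ± 0.37, adjusted p = 0.108), the high value again being that of mouse 3.

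*Fgf20* (chr8:40279166-40308331, minus strand) was at 5.48 ± 0.672 CPM in NPC-like cells, above the next, the small cluster 19 at 0.803 CPM, by more than the spread. Its NPC-like levels hardly varied over the mice, at 4.77, 5.44, 5.31 and 6.38 CPM from 5, 8, 21 and 46 UMIs (−0.20 ± 0.46, adjusted p = 0.94). The clusters of the class did not show the same order of the genotypes, however, a difference that was not tested. In cluster 9 the ko mice were above the wt mice, at 22.8, 15.6, 8.28 and 8.81 CPM (1.07 ± 0.54, adjusted p = 0.757). The ko values there rest on 5 and 8 UMIs. *Fgf20* passed the filter on low counts in cluster 9 through the ko mice alone, so the change is given as a description. In cluster 6 the ko mice had 0 UMIs of *Fgf20* beside 11 and 17 UMIs (4.04 and 4.20 CPM) in the wt mice. At 784920 and 917919 UMIs in cluster 6, a count of 0 allows up to 3 UMIs in each ko mouse, so an absence of *Fgf20* there was not shown.

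**Figure D2:**
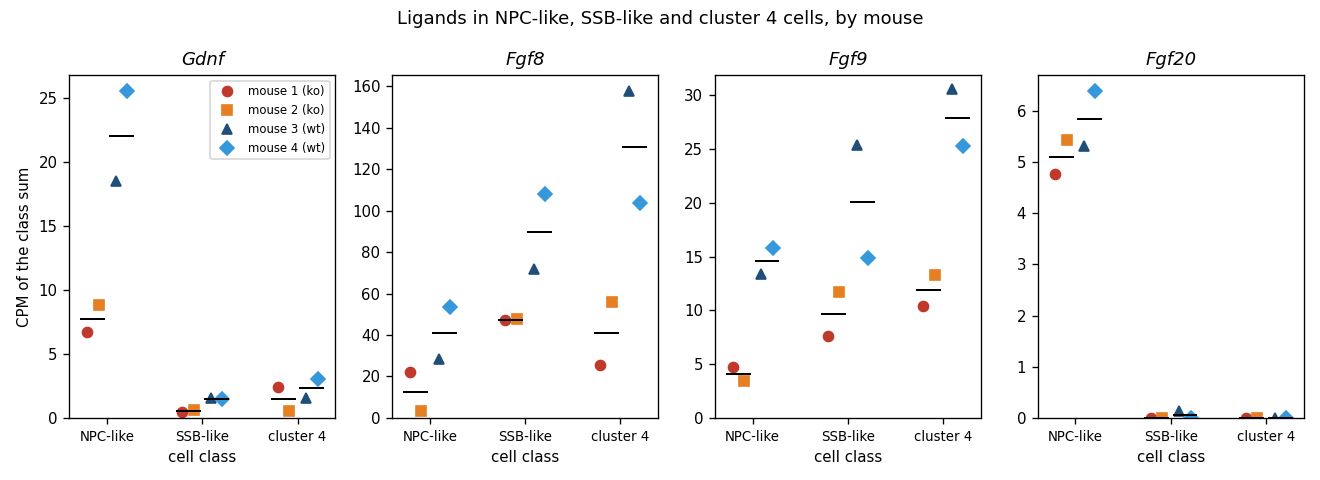
Level of each ligand gene in NPC-like, SSB-like and cluster 4 cells (vertical axis, CPM of the class sum; 1 point per mouse, bars at the mean of each genotype). *Gdnf*, *Fgf8* and *Fgf9* lie lower in both ko mice than in both wt mice in NPC-like cells, whereas *Fgf20* ranges from 4.77 to 6.38 CPM with overlap.

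*Ret* (chr6:118151745-118197718, minus strand) was at 153 ± 57.8 CPM in UB-like cells. The next levels, 6.26 CPM in erythroid-like cells (13 UMIs) and 4.85 ± 1.38 CPM in CD-like cells, the other ureteric bud derivative, were lower by far more than the spread. In UB-like cells *Ret* was at 216 and 145 CPM in mice 1 and 2 and at 78.1 and 171 CPM in mice 3 and 4, so that the genotypes overlapped (0.53 ± 0.36, adjusted p = 0.999). The change was 0.02 without mouse 3 and 1.15 without mouse 4, neither past the threshold (adjusted p = 1 and 0.402).

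The UB-like cells also differed in other markers. The 8 UB markers summed to 3759, 3073, 2001 and 2810 CPM, higher in both ko mice and lowest in mouse 3, as were the 7 DT markers (2629, 2058, 1051 and 1603 CPM), which share *Calb1* with them. The immune and stroma markers were higher in both ko mice too, and the RV (456, 442, 675 and 593 CPM), PT (178, 174, 238 and 280.4 CPM), SSB, early proximal tubule and endothelial markers were lower in both. Mouse 3, with the lowest *Ret* level, had the highest UB-like level of *Egln3*, a hypoxia-induced gene (0, 11.4, 83.1 and 7.40 CPM). The 8 CD markers summed to 884, 1451, 1273 and 879 CPM. The part of these in the values of *Ret* and of the other genes in UB-like cells was not tested.

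The thinned share of UB-like cells with a *Ret* UMI was 79.2% (19 of 24 cells, exact 95% interval 57.8 to 92.9%) and 52.4% (33 of 63, 39.4 to 65.1%) in the ko mice. It was 30.2% (35 of 116, 22.0 to 39.4%) and 53.7% (36 of 67, 41.1 to 66.0%) in the wt mice, with overlap (exact permutation p = 0.667). PT-like cells had 0.662 to 2.27%, at median depths of 23533.5 UMIs there and 16126.5 in UB-like cells. Unthinned, the shares were 87.5, 76.2, 48.3 and 65.7%.

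*Gfra1* (chr19:58235604-58455909, minus strand) was at 307 ± 48.4 CPM in UB-like cells, above cluster 4 at 85.9 ± 16.7, CD-like cells at 70.2 ± 8.72, podocyte-like (Pod-like) cells at 48.7 ± 8.91 and SSB-like cells at 47.1 ± 9.66 CPM. The co-receptor was thus found in nephron classes as well, far above the 1.28 CPM or less that free RNA could give there. The UB-like levels of 374, 267, 275 and 310 CPM overlapped between genotypes (0.12 ± 0.21, adjusted p = 0.999), as did those of NPC-like cells at 24.8, 44.2, 48.1 and 37.5 CPM (−0.27 ± 0.28, adjusted p = 0.827).

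In cluster 4 *Gfra1* was higher in both ko mice than in both wt mice, at 91.6, 107, 69.7 and 75.4 CPM, without passing the test (0.46 ± 0.17, adjusted p = 0.36). *Ret* was also higher there in both ko mice, at 5.62, 7.19, 1.18 and 2.53 CPM from 28 UMIs in all (1.84 ± 0.63, adjusted p = 0.323). *Ret* passed the filter on low counts in cluster 4 through the ko mice alone, so its change is given as a description. Its share among barcodes of free RNA could give at most 0.447 CPM in that cluster.

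Receptor, co-receptor and ETS factors were found in the same UB-like cells. After thinning, 111 of the 123 UB-like cells with a *Ret* UMI also had a *Gfra1* UMI (90.2%), against 81.1% of all 270 UB-like cells. Cells with a *Ret* UMI had a higher level of *Gfra1* than cells without one in 4 of 4 mice (488 and 88.2 CPM, 316 and 250, 378 and 221, and 368 and 256 in mice 1 to 4). *Etv4* was also higher in 4 of 4 mice (248 and 29.4 CPM, 152 and 29.4, 105 and 27.2, and 212 and 61.7). *Etv5* was likewise higher in 4 of 4 mice (147 and 0 CPM, 93.6 and 34.3, 46.2 and 25.4, and 127 and 66.4). *Wnt11*, a *Ret* target at the bud tips that is also a UB marker, was higher in each mouse too, with means over mice of 143 and 30.7 CPM. The Sprouty genes differed less. *Spry1* had means of 113 and 93.0 CPM and was higher in cells with *Ret* in 2 of 4 mice. *Spry2* had 32.0 and 26.0 CPM and was higher in 3 of 4 mice. Mouse 1 had 5 UB-like cells without a *Ret* UMI, so its values for them are coarse. A cell without a UMI may still express *Ret*, and the values are a description of single cells without a test.

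**Figure D3:**
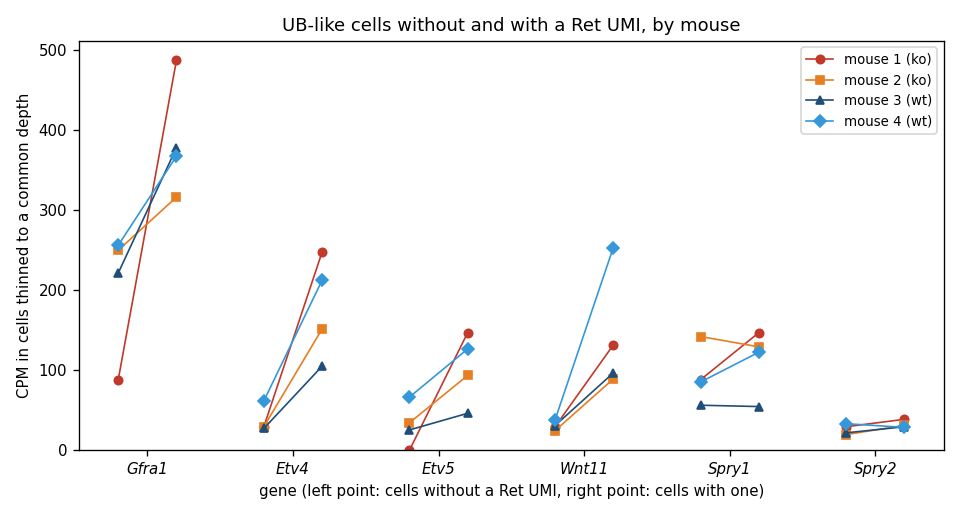
Level of 6 genes in the UB-like cells of each mouse without a *Ret* UMI (left point of each pair) and with one (right point), in CPM of cells thinned to 6800 UMIs. The lines of *Gfra1*, *Etv4*, *Etv5* and *Wnt11* rise in all 4 mice, and those of *Spry1* and *Spry2* rise in 2 and 3 of the 4.

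*Etv4* (chr11:101769742-101785371, minus strand) was at 116 ± 51.6 CPM in UB-like cells, then at 30.8 CPM in both cluster 4 and NPC-like cells and at 27.6 ± 10.8 CPM in SSB-like cells. In UB-like cells the genotypes overlapped, at 171, 92.4, 56.0 and 145 CPM (0.37 ± 0.44, adjusted p = 0.999), and the sign of the change turned without mouse 1 (−0.09, adjusted p = 1) and without mouse 3 (−0.25, adjusted p = 0.995).

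In 3 classes of the nephron lineage *Etv4* was lower in both ko mice than in both wt mice, each time without passing the test. Cluster 4 was at 20.1, 23.8, 38.4 and 41.0 CPM (−0.84 ± 0.23, adjusted p = 0.16) and SSB-like cells at 19.9, 19.4, 28.8 and 42.5 CPM (−0.84 ± 0.24, adjusted p = 0.542). NPC-like cells were at 22.9, 27.2, 29.8 and 43.2 CPM (−0.54 ± 0.28, adjusted p = 0.588), which passed without mouse 3 (−0.75, adjusted p = 0.0355) but not without mouse 4 (−0.24, adjusted p = 0.621), mouse 1 or mouse 2. The clusters of the NPC-like class went opposite ways, with 13.5, 10.4, 23.5 and 40.5 CPM in cluster 6 (−1.44 ± 0.39, adjusted p = 0.143) and 59.2, 58.6, 44.7 and 44.7 CPM in cluster 9 (0.40 ± 0.32, adjusted p = 0.924), a difference that was not tested.

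*Etv5* (chr16:22381309-22439719, minus strand) was at 83.1 ± 39.3 CPM in UB-like cells, above SSB-like cells at 30.1 ± 10.6, immune-like cells at 29.6 ± 13.4 and cluster 4 at 29.1 ± 12.4 CPM, which did not differ from each other beyond the spread. Its UB-like levels of 123, 80.3, 30.3 and 98.7 CPM had the same order of mice as those of *Ret* and *Etv4* (0.66 ± 0.48, adjusted p = 0.999), and the change was −0.048 without mouse 3 (adjusted p = 1). As for *Etv4*, both ko mice were below both wt mice in cluster 4, at 13.7, 24.9, 36.4 and 41.5 CPM (−0.96 ± 0.27, adjusted p = 0.185), and in SSB-like cells, at 19.9, 23.5, 33.7 and 43.4 CPM (−0.81 ± 0.22, adjusted p = 0.457). NPC-like levels overlapped, at 13.4, 19.0, 17.7 and 27.3 CPM (−0.47 ± 0.33, adjusted p = 0.728).

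*Spry1* (chr3:37639947-37644598, plus strand) was the most widely spread of the 10 genes, with means from 14.5 CPM in immune-like cells to 105 ± 34.4 CPM in UB-like and 97.5 ± 50.9 CPM in Pod-like cells. UB-like levels were higher in both ko mice, at 141 and 117 CPM, than in both wt mice, at 59.6 and 101 CPM (0.69 ± 0.30, edgeR adjusted p = 0.999), and the change was 0.32 without mouse 3 and 1.09 without mouse 4. Pod-like levels were lower in both ko mice, at 49.4 and 59.6 CPM beside 153 and 128 CPM (−1.40 ± 0.33, adjusted p = 0.202). The value passed without mouse 4 (−1.53, adjusted p = 9.70e-04), but not without mouse 1, 2 or 3 (adjusted p = 0.836, 0.215 and 0.123). The podocyte marker *Nphs1* (945, 756, 1169 and 1132 CPM) was also lower in both ko mice. Another, *Podxl* (1631, 1894, 2262 and 1809 CPM), overlapped between genotypes, and their part in the *Spry1* values was not tested.

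The thinned share of Pod-like cells with a *Spry1* UMI was 29.6% (8 of 27 cells, exact 95% interval 13.8 to 50.2%) and 18.8% (3 of 16, 4.05 to 45.6%) in the ko mice and 60% (39 of 65, 47.1 to 72.0%) and 57.6% (19 of 33, 39.2 to 74.5%) in the wt mice. The exact permutation p was 0.333. PT-like cells, at more than the depth of Pod-like cells (medians of 23533.5 and 9965 UMIs), had 9.47 to 25.8%, lower in both ko mice as well. NPC-like cells showed no such order for *Spry1*, with 46.7, 42.8, 51.3 and 46.4 CPM (−0.13 ± 0.21, adjusted p = 0.91).

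*Spry2* (chr14:105891947-105896819, minus strand) was highest in cluster 13 at 34.9 ± 6.54 CPM, stroma-like cells at 32.3 ± 9.93 CPM and UB-like cells at 31.5 ± 8.29 CPM, which did not differ beyond the spread. UB-like levels were higher in both ko mice, at 41.0, 34.1, 21.2 and 29.6 CPM (0.55 ± 0.32, adjusted p = 0.999; 0.29 without mouse 3). NPC-like levels were low and lower in both ko mice, at 5.72, 6.80, 7.08 and 10.3 CPM (−0.48 ± 0.43, adjusted p = 0.786).

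**Figure D4:**
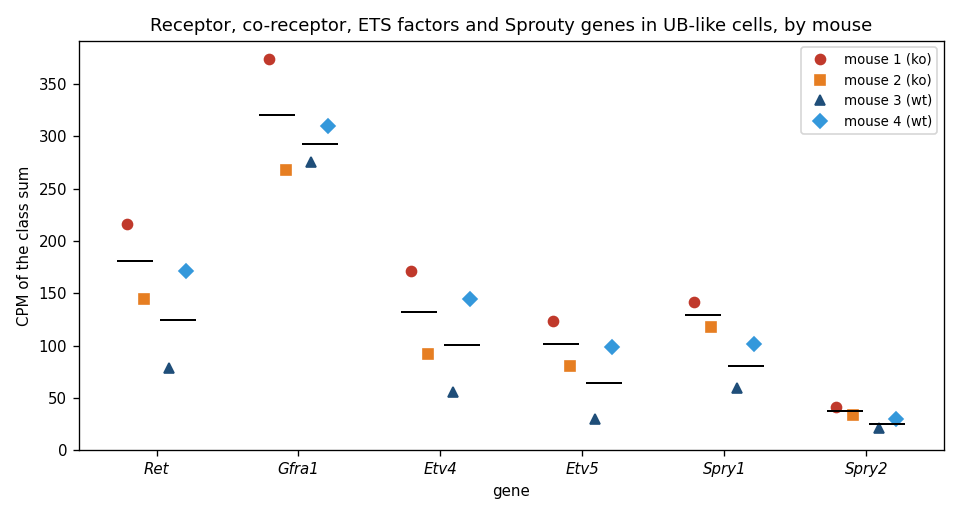
Levels of *Ret*, *Gfra1*, *Etv4*, *Etv5*, *Spry1* and *Spry2* in UB-like cells (vertical axis, CPM; 1 point per mouse, bars at the mean of each genotype). Mouse 3 has the lowest *Ret*, *Etv4*, *Etv5*, *Spry1* and *Spry2* levels, and the genotypes overlap except for *Spry1* and *Spry2*.

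Across the genes, the tested genes had negative changes in NPC-like and positive changes in UB-like cells, without calls in either. In NPC-like cells 9 of the 10 genes passed the filter on low counts (*Ret* did not). Of these, 9 of 9 had a negative log2 change, with a median of −0.48 beside −0.01 for all 11240 genes tested. None passed the test (0 called), where 1.58% of all genes did. In edgeR 3 of them (*Gdnf*, *Fgf8* and *Fgf9*) had an unadjusted p under 0.05, beside 1114 of all 11240 genes, and DESeq2 also called 0. For *Fgf8* and *Fgf9* a ko mouse at 3.40 CPM was under the cutoff of the filter, which the ko mice alone would not have passed. Their place in these counts is therefore a description. Both ko mice were below both wt mice for 5 of the 10 genes and above them for 0, beside 21.3% and 19.5% of all genes tested.

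In UB-like cells 7 genes were tested (*Gdnf*, *Fgf8* and *Fgf20* were not). Of these, 0 had a negative change, the median was 0.53 beside −0.00 for all 9716 genes, and 0 were called by edgeR or by DESeq2. Of all genes tested in that class 0.0% were called, and 355 were at an unadjusted p under 0.05, of which 1 was *Spry1*. The ko mice were above the wt mice for 2 of the 10 genes, *Spry1* and *Spry2*, and below for 1, *Fgf8*, which had 11 UMIs, beside 15.1% and 15.7% of all genes.

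In cluster 4, 8 genes were tested, 1 was called, 6 had a negative change with a median of −0.72 (−0.01 for all genes), and 7 had an unadjusted p under 0.05, beside 985 of all 10598 genes. The ko mice were below the wt mice for 5 genes and above for 2, the receptor genes, beside 19.5% and 19.2% of all genes. In SSB-like cells 7 were tested, 0 were called (0.204% of all genes; 5 at an unadjusted p under 0.05, beside 696 of all 11746 genes), 6 were negative with a median of −0.81, and the ko mice were below the wt mice for 7 of the 10 genes and above for 0 (17.4% and 18.0% of all genes). In cluster 6, 8 were tested and 1 was called, *Fgf9*, which passed the filter through the wt mice alone (1.7% of all genes; 5 at an unadjusted p under 0.05, beside 960 of all 10377 genes). There 8 were negative with a median of −1.19, and the ko mice were below the wt mice for 7 of the 10 genes and above for 0 (21.1% and 18.5% of all genes). In cluster 9, 8 were tested, 0 were called (1.13% of all genes; 1 at an unadjusted p under 0.05, beside 584 of all 8126 genes), 3 were negative and the median was 0.20. There the ko mice were above the wt mice for 4 genes (*Etv4*, *Spry1*, *Ret* and *Fgf20*) and below for 3 (*Gdnf*, *Fgf8* and *Spry2*), beside 18.3% and 19.8% of all genes. Genes with few UMIs pass the filter mainly where a group is high, so these counts describe the tested genes and not all 10. *Ret* in cluster 4 and *Fgf20* in cluster 9 passed it through the ko mice alone. *Fgf8* and *Fgf9* in NPC-like cells, and *Gdnf* and *Fgf9* in clusters 6 and 9, would not have passed it through the ko mice alone.

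**Figure D5:**
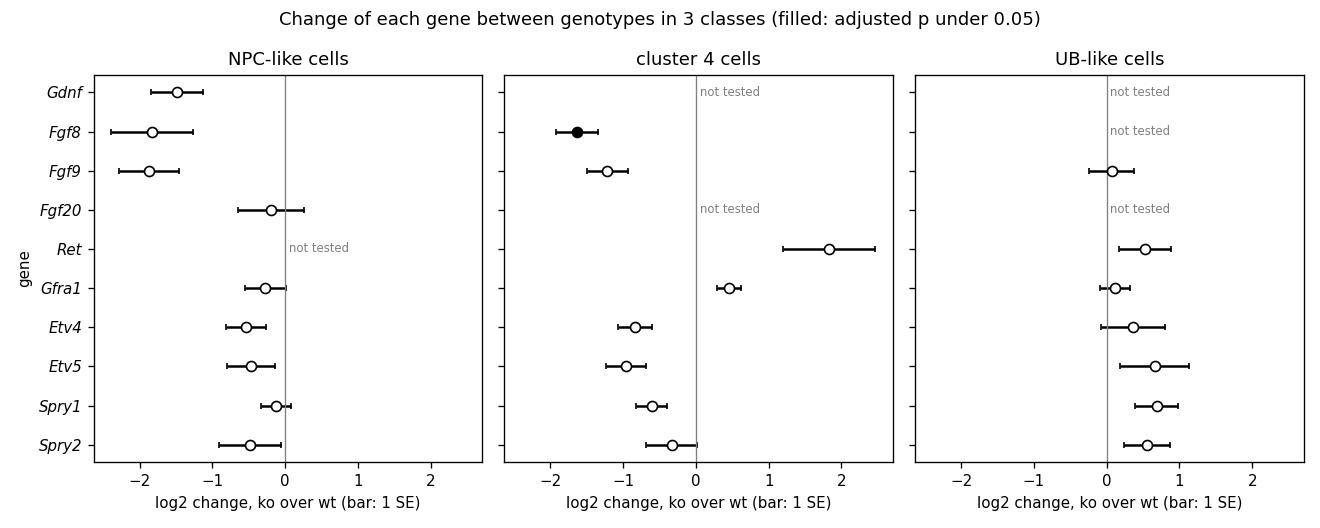
Log2 change (ko over wt, horizontal axis, bars of 1 SE) of each gene in NPC-like, cluster 4 and UB-like cells from edgeR, with filled points at an adjusted p under 0.05. *Fgf8* in cluster 4, at −1.64, is the only filled point, the tested genes lie below 0 in NPC-like cells and above 0 in UB-like cells, and genes under the filter on low counts are marked as not tested.

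Whether a change differed between NPC-like and UB-like cells was tested as an interaction with the mouse as a block. Of the 9 genes that could be tested 0 were called by edgeR or DESeq2, beside 0.308% of all 10699 genes, with an unadjusted p under 0.05 for *Fgf9*, *Spry1*, *Etv5* and *Etv4*, beside 821 of all genes. The difference was −1.90 ± 0.49 for *Fgf9* (adjusted p = 0.183), −1.11 ± 0.42 for *Etv5* (adjusted p = 0.482), −0.87 ± 0.37 for *Etv4* (adjusted p = 0.591) and −0.83 ± 0.31 for *Spry1* (adjusted p = 0.476). For *Spry2* and *Gfra1* it was −0.96 ± 0.46 (adjusted p = 0.662) and −0.32 ± 0.32 (adjusted p = 0.902). The other 3 genes had the other sign, with adjusted p from 0.799 to 0.931: 0.54 ± 0.63 for *Ret*, 2.25 ± 2.66 for *Gdnf* and 3.75 ± 2.31 for *Fgf8*. In UB-like cells these ligands had UMIs in wt mice alone, 2 for *Gdnf* in mouse 3 and 7 and 4 for *Fgf8* in mice 3 and 4, so their directions were not opposite in the 2 classes. No single gene was thus shown to differ in its change between the 2 classes.

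Summed over all cells of a mouse, where fewer cells of a type and less RNA per cell cannot be told apart, 9 of the 10 genes had a negative change with a median of −0.74, and 0 were called by edgeR (0.206% of all genes; 5 had an unadjusted p under 0.05, beside 2597 of all 16524 genes). DESeq2 called 3, beside 4.28% of all genes. Both ko mice were below both wt mice for 7 genes and above them for 0, beside 24.0% and 24.5% of all genes. *Fgf8* was at 8.89, 11.3, 23.0 and 32.9 CPM (−1.46 ± 0.23, adjusted p = 0.0789 in edgeR and 2.41e-06 in DESeq2), and without mouse 2, 3 or 4 its adjusted p in edgeR was 0.0304, 0.0013 and 0.00188, but without mouse 1 it was 0.132. *Gdnf* was at 1.49, 1.81, 3.75 and 8.89 CPM (−1.92 ± 0.46, adjusted p = 0.146), while NPC-like cells made up 48 of 1316 and 73 of 1491 cells in the ko mice and 214 of 2749 and 389 of 1807 in the wt mice. *Spry1* was at 30.2, 33.4, 54.5 and 44.5 CPM (−0.64 ± 0.15, adjusted p = 0.136).

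Other genes of the pathways were taken from 4 lists. Among 18 known regulators of the *Gdnf* domain, 16 were tested in NPC-like cells, of which 3 fell and 1 rose, with a median of −0.47. Of all genes tested in that class 1.58% were called, which is also the share to set beside the lists that follow. *Osr1*, an early marker of the intermediate mesoderm, fell from 61.0 and 49.6 CPM in mice 3 and 4 to 22.9 and 18.3 CPM in mice 1 and 2 (−1.43 ± 0.25, adjusted p = 0.0232). *Eya1*, a co-activator that *Gdnf* expression needs, was at 58.2, 76.1, 122 and 149 CPM (−1.001 ± 0.20, adjusted p = 0.0346), and *Pax2*, a transcription factor acting with it, at 160.3, 163, 277 and 347 CPM (−0.95 ± 0.16, adjusted p = 0.0197). Both *Osr1* and *Eya1* are among the markers that name the class. *Slit2*, which encodes a ligand that with its receptor restricts the *Gdnf* domain, rose, at 135, 104, 59.4 and 56.8 CPM (1.03 ± 0.19, adjusted p = 0.0261).

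Among 15 further genes of *Gdnf*-Ret signalling, 10 were tested in NPC-like cells and 1 fell, *Kif26b*, a kinesin gene needed for the mesenchyme to attach to the bud, at 32.4, 19.7, 78.2 and 96.7 CPM (−1.78 ± 0.26, adjusted p = 0.0106; list median −0.45). Among 12 further ERK feedback and ETS genes, 11 were tested and 1 fell, *Etv1*, a close relative of *Etv4* and *Etv5*, at 9.54, 8.16, 33.4 and 34.7 CPM (−1.95 ± 0.30, adjusted p = 0.0129; list median −0.26). Among 16 further Fgf genes, 12 were tested and 0 changed (list median −0.11; 2 at an unadjusted p under 0.05). The receptor gene *Fgfr1* was level at 191, 194, 188 and 182 CPM (0.06 ± 0.14), as was *Ptpn11*, which encodes an adaptor phosphatase, at 70.6, 62.5, 49.3 and 70.2 CPM (0.14 ± 0.23).

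In UB-like cells 0 genes of the 4 lists were called, as were 0.0% of all genes tested there, with list medians of 0.08 (*Gdnf*-Ret), 0.07 (Fgf), 0.20 (ERK feedback) and −0.32 (*Gdnf* domain). Among the *Gdnf*-Ret genes, *Sox9*, a bud tip transcription factor gene, was at 515, 314, 186 and 386 CPM. Among the Fgf genes, those at the highest levels were *Fgfr2*, an Fgf receptor of the bud, at 121, 171, 185 and 129.9 CPM, and *Ptpn11* at 57.0, 59.8, 50.6 and 62.5 CPM. *Dusp6*, an ERK phosphatase gene, was at 105, 61.4, 59.6 and 78.1 CPM and *Spred1*, a relative of the Sprouty genes, at 75.2, 75.7, 46.5 and 67.4 CPM. *Npnt*, which encodes an integrin ligand, was at 298, 376, 568 and 315 CPM and *Gpc3*, a glypican gene, at 314, 247, 347 and 347 CPM. Mouse 3 was lowest for *Sox9*, *Dusp6* and *Spred1* and highest for *Npnt*. In cluster 4, where 0.83% of all genes were called, 2 genes of the lists fell, both named after their values were seen. *Sox9* was at 86.7, 91.8, 159.9 and 187 CPM (−0.95 ± 0.15, adjusted p = 0.00903) and *Gpc3* at 151, 130.0, 239.8 and 219.7 CPM (−0.72 ± 0.14, adjusted p = 0.0293).

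The genes most like each of the 10 over the 16 named classes were found by Pearson's r of the mean log2(CPM + 1), given without a test since the classes share mice, depth and a single run. Clusters without a name did not enter, so r leaves out cluster 4, where *Fgf8* was highest, and cluster 13, where *Gdnf* and *Spry2* were. *Ret* was close to *Gm14133* (r = 0.94) and *Slco4c1* (0.94), and *Gfra1* to *Rprm* (0.85), *Moxd1* (0.82) and *Ppp1r14c* (0.82), all highest in UB-like cells. *Gdnf* was closest to *Itga8* (0.93), *Des* (0.92) and *Rem1* (0.91), highest in mural-like or stroma-like cells. *Fgf8* was closest to *Defb25* (0.83), *Uncx* (0.80) and *Hes5* (0.79), *Fgf9* to *Wfdc2* (0.91), *Mgst1* (0.91) and *Ppp2r3a* (0.91), and *Fgf20* to *Six2* (0.84), *Crym* (0.84) and *Elavl4* (0.84). *Etv4* and *Etv5* were each other's closest gene (0.85), followed by *Cdc20* (0.79) and *Nucks1* (0.78) for *Etv4* and by *Cdkn3* (0.83) and *Pmf1* (0.83) for *Etv5*, all 4 highest in SSB-like cells among the named classes. *Spry1* was closest to *Nradd* (0.85), *Mast2* (0.84) and *Srf* (0.84), and *Spry2* to *Ror2* (0.79), *Pla2g4a* (0.79) and *Dsel* (0.78). Among the 10 genes themselves the next pairs were *Gfra1* with *Ret* (0.74) and *Etv4* with *Ret* (0.66).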

How the data were processed

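Single-cell RNA-seq of 1 pool was analysed, for the kidneys of the 4 embryos that the deposited tag list names. The authors counted UMIs with Cell Ranger (6.0.0 by the methods, 4 by the matrix header) and deposited raw UMI counts of all 3921239 barcodes, together with a list that names 4 tags by mouse and genotype. The sources used here do not name the genome build of these counts. Bulk libraries of the series and the study's own cell annotation were left aside.

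A barcode was taken as a cell from 6891 UMIs (an order-of-magnitude rule for 24000 expected cells) and 200 genes on, with a mitochondrial share of 10% or less, which left 19272. HTODemux (Seurat 5.3.0, R 4.3.3) gave 7363 cells 1 named tag. Cells with more than 1 tag (4721) were treated as doublets and left out, together with 2680 cells without a tag and 4508 cells with a tag outside the list. Scrublet (scanpy 1.11.5) marked 7.65% of the assigned cells and 39.5% of those with several tags. Cells were clustered on 30 components of 3000 variable genes (sctransform 0.4.2, resolution 0.8). A cluster was named where at least 3 markers of a type were raised 1.5-fold in at least 10% of cells and their mean score reached 0.5, unless its 10 leading genes held more markers of another type than of its own (as in clusters 4 and 13). The 10 genes, the marker lists and the pathway lists were chosen with earlier results of these data known.

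UMIs were summed per mouse and class (at least 10 cells in every mouse) and tested with edgeR 4.0.16 (TMM, filterByExpr, quasi-likelihood, Benjamini-Hochberg over all genes of the class, threshold 0.05), after a check on simulated counts. The mice gave 25761268, 31087277, 52777501 and 35851952 UMIs. SDs are over mice. Intervals of shares are exact binomial (Clopper-Pearson, 95%) and cover counting error only. Pathway genes are named where called in NPC-like or UB-like cells, or else as the 2 at the highest level of each list. For each of the 10 genes, the 3 most like it are named among genes reaching 20 CPM. Some genes that these rules select are not reported here. Alternatives were upper quartile scaling, DESeq2 1.42.0, no filter on low counts, other tag calls, Scrublet doublets left out, 2500 UMIs as the minimum, other clusterings and each mouse left out. Positions are from GENCODE M21 on GRCm38.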

Additional observations from a re-analysis of the deposited data

Results flagged for a closer look

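A further 4508 cells carried 1 of the tags that the deposited list does not name, and they entered no comparison.

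Among classes where the mean level of a gene reached 20 CPM, the ko mice lay above the wt mice in some classes, without overlap, and below them in others for *Gfra1*, *Etv5* and *Spry1*. At lower levels *Fgf8*, *Fgf20*, *Ret* and *Spry2* did so too. In NPC-like, UB-like, SSB-like and cluster 4 cells, 15.1 to 21.3% of all genes tested were separated in a given direction. That share is not given for the other classes named below, so the classes listed for each gene are a description only. The differences between classes were not tested. For *Gfra1* the ko mean minus the wt mean was 16.9 CPM in intercalated cell-like and 26.6 CPM in cluster 4 cells and −6.35 CPM in endothelial-like cells. For *Etv5* it was 19.9 CPM in immune-like and 4.52 CPM in cluster 13 cells, beside −16.9 CPM in SSB-like and −19.7 CPM in cluster 4 cells.

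For *Spry1* the difference was 48.9 CPM in UB-like and 21.3 CPM in mural-like cells. In 9 classes it was negative. These were Pod-like (−86.1 CPM), stroma-like (−38.3 CPM), early proximal tubule-like (−28.0 CPM), SSB-like (−23.1 CPM), LOH-like (−21.4 CPM), cluster 4 (−17.3 CPM), RV-like (−13.8 CPM), CD-like (−9.92 CPM) and PT-like cells (−9.33 CPM). CD-like cells derive from the ureteric bud, as UB-like cells do, and the CD-like cells of mouse 3 come from a cluster that the other mice hardly held. In CD-like cells *Spry1* was at 18.6, 20.1, 36.0 and 22.6 CPM in mice 1 to 4.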

How the results depend on the processing

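The direction of the ko over wt change held in NPC-like cells for *Gdnf* (−1.74 to −0.95), *Fgf9* (−2.11 to −1.53), *Fgf8* (−3.59 to −0.92) and *Etv4* (−0.75 to −0.24) under all 15 alternatives, and that of *Fgf8* in the class with its highest level (−2.36 to −0.90) did too. The number of genes that passed the test in NPC-like cells, 0, was 3 with no filter on low counts, 1 with tags called at a 70% share, 1 at a minimum of 2500 UMIs and 0 to 4 with a mouse left out (1 without mouse 1, 4 without mouse 3, 3 without mouse 4). The single gene and class called over all classes became 0 in DESeq2, 17 with no filter, 2 with k-means tag calls, 3 with the 70% share, 2 at 2500 UMIs, 2 with the 10 genes kept for clustering, 2 with tag counts normalized over cells (chosen after seeing the data) and 2 to 21 with a mouse left out (2 without mouse 1 or 2, 15 without mouse 3, 21 without mouse 4). In these fits the spread of the lone mouse is taken from the other pair. The share of all genes called moved as well. In NPC-like cells it was 1.58%, and 2.58% with no filter, 0.209 and 0.306% without mouse 1 or 2 and 5.74 and 10.4% without mouse 3 or 4. Over all classes it was 0.31%, and 1.32% with no filter, 0.196 and 0.257% without mouse 1 or 2 and 1.84 and 9.57% without mouse 3 or 4.

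For the sum of all cells the count of 0 became 3 in DESeq2, 4 with no filter and 0 to 6 with a mouse left out (1 without mouse 2, 6 without mouse 3, 5 without mouse 4), beside 0.206% of all genes, 4.28% in DESeq2, 3.8% with no filter and 0.788, 11.4 and 26.2% without mouse 2, 3 or 4. For the difference between NPC-like and UB-like cells it became 1 with no filter and 0 to 3 with a mouse left out (1 without mouse 3, 3 without mouse 4), beside 0.308% of all genes, 0.653% with no filter and 1.11 and 1.67% without mouse 3 or 4. In UB-like cells the count was 0 under the 14 alternatives that gave a value (at 2500 UMIs the cluster held 8 cells of mouse 1, too few to test), while the sign of 2 changes turned with a mouse left out, that of *Etv4* (−0.25 to 1.12; −0.093 without mouse 1 and −0.25 without mouse 3) and that of *Etv5* (−0.048 to 1.66; −0.048 without mouse 3). Without thinning, the share of NPC-like cells with a *Gdnf* UMI differed by −12.1 percentage points in place of −4.02. At a minimum of 2500 UMIs, 5 of the 10 genes were highest in the same class as before. There *Ret*, *Gfra1*, *Etv4*, *Etv5* and *Spry1* were highest in a cluster without a name, which scored 1.853 for CD and 1.549 for UB markers. The UB-like cluster at that setting, with 8 cells of mouse 1, was still led by *Ret* and *Gfra1* among others. The cause of these shifts was not tested.

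No paired analysis was possible because each of the 4 mice has its own number, so that no ko mouse is matched to a wt mouse. With 2 against 2 mice the smallest p of an exact permutation test was 0.333. *Gdnf*, *Fgf9* and *Fgf20* in NPC-like cells rest on 5 to 13 UMIs in each ko mouse, which limits what can be said of their levels.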
